A study of Mus musculus with 2 samples.

Results

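The 6 genes described here, *Slc45a4*, *Gm39269*, *Man2a2*, *Kcnt1*, *Nudt14* and *Dgkz*, were selected on the measurement itself. Among the 2309 genes for which both libraries listed at least 1 promoter peak of H3K36me2, the first 3 had the largest falls, and the last 3 the largest rises, of the summed width of their promoter peaks between the genotypes. They are 6 of the 18187 genes named in the peak lists. Of the 43494 listed peaks, 47 were annotated to them (20 in NSD2fl/fl and 27 in NSD2∆IE), and a further 64 peaks, annotated to 23 other genes, lay within 50 kb of these. Promoter-peak width, and with it the feature and the gene that each peak was assigned to, chose the genes, so these values are given as a description. The account goes on to where the peaks lay, their overlap with the other library and their signal per bp. These measures come from the same 2 libraries and the same peaks, so none of them is independent evidence.

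The libraries were made from colon tissue by CUT&Tag, in which a transposase tethered to an antibody cuts and tags the DNA around the antibody's target, here H3K36me2. The NSD2fl/fl library came from mice whose *Nsd2* alleles are floxed and intact, and the NSD2∆IE library from mice in which Villin-Cre deletes *Nsd2* in the intestinal epithelium. Both were fed HFCD, a high-fat diet with cholesterol, for 16 weeks by the deposited design text (the study's methods give another time), and were by those methods male C57BL/6J littermates, young adults when the diet began. The number of mice behind a library is not given in the sources used here, and with 1 library per genotype no difference has a replicate check and no test was made. Villin-Cre does not act in the immune, muscle and nerve cells of whole colon, and in such bulk tissue fewer cells of a type and less of the mark per cell cannot be told apart.

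H3K36me2 is dimethylation of lysine 36 on histone H3, a mark written by NSD2 and its relatives NSD1 and NSD3. It typically spreads over broad intergenic and genic domains rather than sitting in sharp peaks at start sites, and it keeps the repressive mark H3K27me3 away. A peak caller can report such a domain as 1 wide peak or as several narrow ones, depending on gaps in the coverage. In the deposited annotation every peak carries 1 gene and 1 feature, and a promoter peak lies within 3 kb of an annotated transcription start site.

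Promoter sequences could be matched for 3 of the genes, and 1 window of each is shown. Those of *Nudt14* and *Gm39269* show start sites that lay inside the mark in one library and outside it in the other, and that of *Dgkz* a start inside the gene that both libraries left free. The sequences are RefSeq's, on build GRCm38.p6, from 250 bases before to 50 bases after the start, each on the minus strand and written 5′ to 3′. Capitals mark the GC box GGGCGG, read on both strands with overlaps allowed (CCGCCC on the other strand). CCAAT and TATAAA were searched in the same way and were found in none of these windows. The *Nudt14* window (chr12:112942093-112942392) corresponds to a start site that lay wholly inside a NSD2∆IE peak and 472 bp from the nearest NSD2fl/fl peak. The *Gm39269* window (chr8:122285125-122285424) corresponds to a start site wholly inside a NSD2fl/fl peak and 1460 bp from the nearest NSD2∆IE peak. The *Dgkz* window (chr2:91963514-91963813) belongs to a start 12880 bp inside the gene, 4055 bp from the nearest one in NSD2fl/fl and 980 bp in NSD2∆IE.
Nudt14: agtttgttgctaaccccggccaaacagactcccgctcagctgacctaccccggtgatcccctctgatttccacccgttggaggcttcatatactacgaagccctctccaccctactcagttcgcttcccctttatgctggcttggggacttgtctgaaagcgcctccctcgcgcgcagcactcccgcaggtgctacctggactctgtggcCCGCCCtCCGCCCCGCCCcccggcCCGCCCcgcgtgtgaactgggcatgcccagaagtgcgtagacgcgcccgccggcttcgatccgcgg
Gm39269: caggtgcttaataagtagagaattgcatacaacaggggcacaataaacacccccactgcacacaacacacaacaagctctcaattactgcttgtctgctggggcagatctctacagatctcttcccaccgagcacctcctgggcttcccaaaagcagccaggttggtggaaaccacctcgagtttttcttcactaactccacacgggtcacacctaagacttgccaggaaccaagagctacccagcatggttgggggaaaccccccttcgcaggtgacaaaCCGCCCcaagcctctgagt
Dgkz: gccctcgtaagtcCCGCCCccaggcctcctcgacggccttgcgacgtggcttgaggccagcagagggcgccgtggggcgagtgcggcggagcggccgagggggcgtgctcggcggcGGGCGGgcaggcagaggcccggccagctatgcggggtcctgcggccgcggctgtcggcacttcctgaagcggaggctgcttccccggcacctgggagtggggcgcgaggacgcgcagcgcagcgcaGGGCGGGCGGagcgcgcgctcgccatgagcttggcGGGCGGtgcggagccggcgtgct

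The *Nudt14* and *Dgkz* windows were rich in CpG, with 26 and 43 CpG dinucleotides and 65% and 77.7% G or C, whereas the *Gm39269* window held 5 CpG at 52.7% G or C. The medians over 32851 mouse promoters of the same length were 7 CpG and 52.7%. The windows held 4, 5 and 1 GC boxes for *Nudt14*, *Dgkz* and *Gm39269*, a motif present in 35.7% of all these promoters, while CCAAT occurred in 37.4% and TATAAA in 13.6%. *Gm39269* and *Dgkz* each had another matched window, not shown, so the contrast depends on the window. That of *Gm39269* held 24 CpG at 66.7% G or C, with 4 GC boxes and 1 CCAAT. That of *Dgkz* held 10 CpG at 61.7%, with 1 GC box and 2 CCAAT. The peak lists use another build than this table, since the start positions of 0 of the 6 genes matched, so every other position below is as the lists print it. The starts of the windows shown were placed in the lists by their transcript or by their distance from the outermost start.

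The summed width of promoter peaks, the value that chose the genes, fell from 33524 bp in NSD2fl/fl to 5694 bp in NSD2∆IE at *Slc45a4*. It fell from 35168 to 8201 bp at *Gm39269* and from 30897 to 4183 bp at *Man2a2*. *Slc45a4* encodes a member of a proton-coupled sugar transporter family, *Man2a2* a Golgi mannosidase that trims N-glycans, and *Gm39269* is a gene model known from predicted non-coding transcripts. In the other direction it rose from 4175 to 30286 bp at *Kcnt1*, which encodes a sodium-activated potassium channel. The rise was from 4187 to 22383 bp at *Nudt14*, a Nudix hydrolase of UDP-sugars, and from 6094 to 22428 bp at *Dgkz*, the diacylglycerol kinase zeta that turns diacylglycerol into phosphatidic acid. All 3 falls and all 3 rises were past 2-fold, as were 24.0% of the 2309 genes downward and 4.89% upward. These counts follow from the choice of the genes. The last gene included among the falls, *Man2a2*, changed by 26714 bp and the next outside, *Stra6*, by 25659 bp (28485 to 2826 bp). Among the rises *Dgkz* changed by 16334 bp and the next, *Plec*, by 14937 bp (10476 to 25413 bp).

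**Figure D1:**
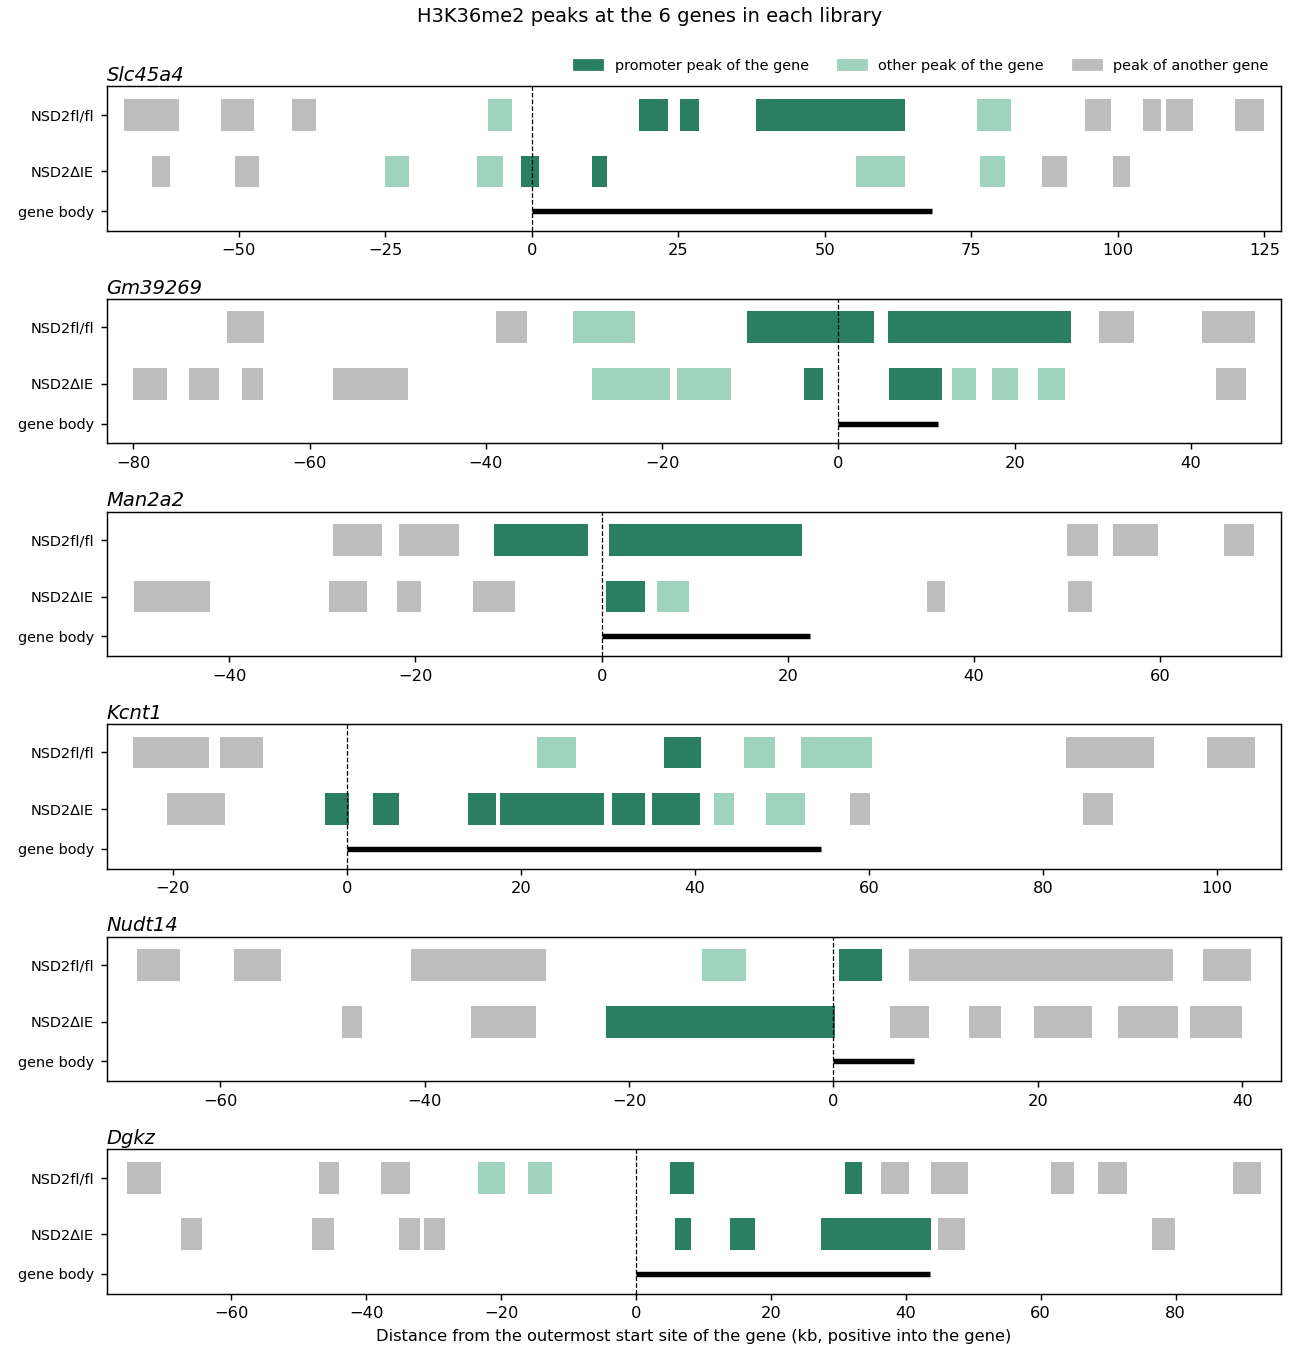
Peaks of H3K36me2 at the 6 genes. Each panel shows the peaks annotated to 1 gene and those within 50 kb of these, with distance in kb from the outermost start site on the x axis (dashed line, positive into the gene), the NSD2fl/fl library above the NSD2∆IE library and the gene body as a black bar. Dark green marks promoter peaks of the gene, light green its other peaks and grey the peaks of other genes. Many dark blocks of one library face light or grey blocks of the other.

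At *Slc45a4* (chr15:73449267-73517606, minus strand), the NSD2fl/fl value rested on a single peak of 25444 bp deep in the gene (chr15:73453942-73479385), the 6th widest of 19976, and on smaller ones of 3091 and 4989 bp. The only NSD2∆IE peak meeting the wide one was 8339 bp long and began 20 bp from its left edge, but it carried the annotation 5′ UTR. Thus 8319 of the 33524 bp of NSD2fl/fl promoter peaks (24.8%) were covered in NSD2∆IE, and none of that by a promoter peak. Both promoter peaks of NSD2∆IE, of 2723 and 2971 bp, lay nearer the outermost start than any promoter peak of NSD2fl/fl. Within 10 kb of that start the called length went the other way from the promoter total, with 4094 bp in NSD2fl/fl and 7274 bp in NSD2∆IE.

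At *Gm39269* (chr8:123000617-123011928, minus strand), NSD2fl/fl had peaks of 20781 and 14387 bp, only 1563 bp apart, that together reached well past both ends of the gene. Over the wider of them NSD2∆IE listed 4 separate peaks of 3096, 3028, 2721 and 6048 bp, which covered 71.7% of it. Only the last of these was a promoter peak of *Gm39269*, the others being called 5′ UTR, an exon of the neighbouring *Zfp469*, or 3′ UTR. Those others were assigned to *Gm39269* but lay 12933 to 25715 bp from its outermost start, past the end of this gene of 11312 bp. The right edge of the 6048 bp promoter peak lay 146 bp from that of the NSD2fl/fl peak. Of the 14387 bp peak, which spans the outermost start, 15.0% was covered in NSD2∆IE. In all, 48.5% of the NSD2fl/fl promoter length at this gene was covered, 8201 bp by promoter peaks and 8845 bp by peaks with other features.

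*Man2a2* (chr7:79998843-80021222, minus strand) had a NSD2fl/fl peak of 20738 bp over most of its gene body and one of 10159 bp upstream, on either side of the outermost start. In NSD2∆IE, 2 pieces of 3536 and 4183 bp covered 35.7% of the first. A further 2292 bp of the second were covered by a peak assigned to the adjacent *Fes*, a tyrosine kinase gene. The 10159 bp peak and the *Fes* peak shared exactly the same segment of highest signal (chr7:80031599-80031603), which was so for 4 of the 7465 overlapping pairs of peaks between the libraries. At this gene, then, 9695 bp (31.4%) of the promoter length was covered in NSD2∆IE, 3867 bp by a promoter peak of *Man2a2*.

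*Kcnt1* (chr2:25753807-25808285, plus strand) had 1 promoter peak of 4175 bp in NSD2fl/fl and 6 in NSD2∆IE, of 2732, 3084, 3199, 11964, 3780 and 5527 bp from the outermost start inward. The NSD2fl/fl peak was met by the last of these, with right edges 64 bp apart. A NSD2fl/fl peak of 4388 bp called 5′ UTR lay wholly inside the 11964 bp promoter peak. Of the 30286 bp in NSD2∆IE, 8499 bp (28.1%) were therefore covered in NSD2fl/fl. Within 10 kb of the outermost start, 304 bp were called in NSD2fl/fl and 5816 bp in NSD2∆IE. The 304 bp were the end of a peak assigned to the neighbouring *Sohlh1*, and no NSD2fl/fl peak of *Kcnt1* lay there.

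At *Nudt14* (chr12:112897911-112905762, minus strand), the NSD2∆IE value was a single peak of 22383 bp (chr12:112905617-112927999), the 2nd widest of 23518, which lay almost wholly upstream and reached 145 bp into the gene. NSD2fl/fl had a promoter peak of 4187 bp just inside the gene that it did not overlap. Another NSD2fl/fl peak of 4274 bp, called downstream, lay wholly inside it and covered 19.1% of it. On the other side of the gene stood the reverse picture at *Jag2*, a Notch ligand gene: 1 promoter peak of 25802 bp in NSD2fl/fl, the 4th widest of that library, was met by 4 NSD2∆IE pieces that covered 62.2% of it. Within the *Nudt14* gene body itself, 4600 bp were called in NSD2fl/fl and 2491 bp in NSD2∆IE, against the direction for which the gene was chosen.

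*Dgkz* (chr2:91763167-91806788, minus strand) had NSD2fl/fl promoter peaks of 2515 and 3579 bp and NSD2∆IE promoter peaks of 16166, 3810 and 2452 bp. The widest, at the far end of the gene, contained the 2515 bp peak and a NSD2fl/fl peak of 4066 bp that was annotated to the neighbouring *Mdk* as 3′ UTR, which encodes the growth factor midkine. With the 2452 bp peak, which lay wholly inside the one of 3579 bp, 9033 of 22428 bp (40.3%) were covered in NSD2fl/fl. The other NSD2fl/fl peaks of *Dgkz*, of 3612 and 4022 bp, lay upstream of it inside *Creb3l1*, and no NSD2∆IE peak overlapped them.

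When all peaks annotated to a gene were counted, whatever their feature, every gene kept its direction and the differences shrank. The length went from 43399 to 26672 bp at *Slc45a4*, from 42198 to 32143 bp at *Gm39269* and from 30897 to 7719 bp at *Man2a2*. It went from 20237 to 37097 bp at *Kcnt1*, from 8461 to 22383 bp at *Nudt14* and from 13728 to 22428 bp at *Dgkz*. Only *Man2a2* (log2 ratio -2.00) and *Nudt14* (1.40) were still past 2-fold, 1 of 3 in each direction, against 20.4% of the 2309 genes downward and 6.24% upward.

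When the annotation was left aside and all called length in the gene and 50 kb on each side was summed, no gene was past 2-fold, where 14.8% of the 2309 genes were downward and 4.68% upward. The 3 genes chosen as falls still had less in NSD2∆IE, 37461 against 62359 bp around *Slc45a4*, 36758 against 55758 bp around *Gm39269* and 31418 against 53865 bp around *Man2a2* (log2 ratios of -0.74, -0.60 and -0.78). The 3 genes chosen as rises had nearly equal length. *Kcnt1* had 49716 bp in NSD2fl/fl and 49457 bp in NSD2∆IE, *Nudt14* 52136 and 54257 bp, and *Dgkz* 42376 and 39466 bp (-0.01, 0.06 and -0.10). The median log2 ratio over all 2309 genes was -0.30 by this measure and -0.43 for promoter peaks, and the NSD2fl/fl list as a whole was longer (102992493 against 88118230 bp, a log2 difference of 0.23). The window contains the promoter peaks that chose the genes, for example 33524 of the 62359 bp around *Slc45a4* in NSD2fl/fl and 30286 of the 49457 bp around *Kcnt1* in NSD2∆IE, so a difference in the chosen direction is partly built in.

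**Figure D2:**
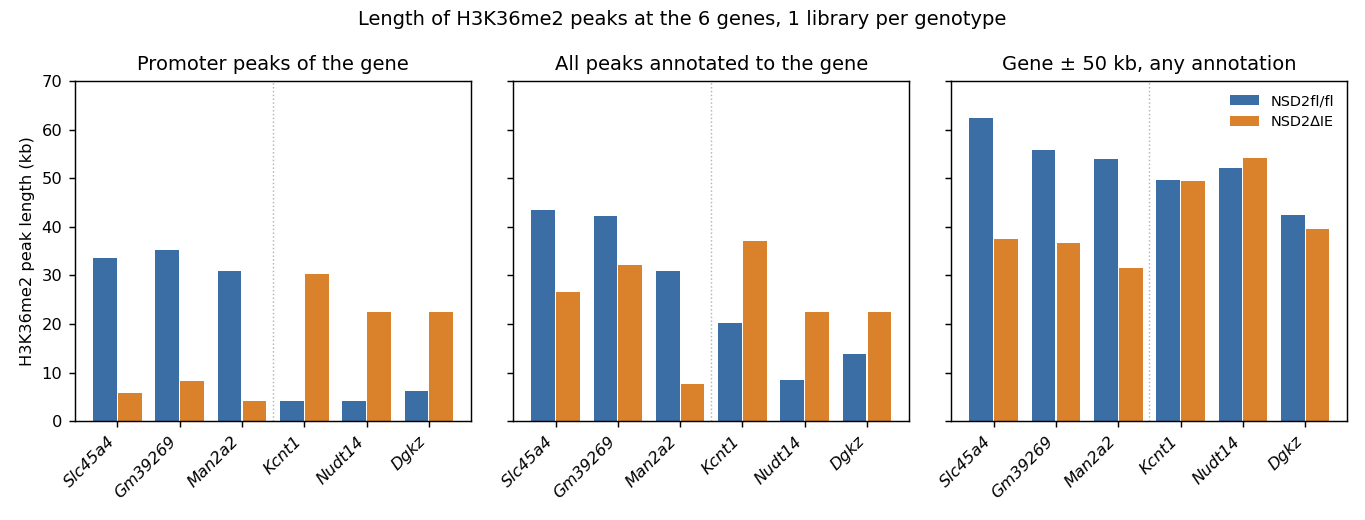
Called length at the 6 genes by 3 measures. Bars give kb of H3K36me2 peaks in the NSD2fl/fl library (blue) and the NSD2∆IE library (orange) for promoter peaks, all annotated peaks, and the gene with 50 kb on each side, the genes chosen as falls standing left of the dotted line. The paired bars of *Kcnt1*, *Nudt14* and *Dgkz* differ by several-fold on the left and stand at nearly equal height on the right.

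**Figure D3:**
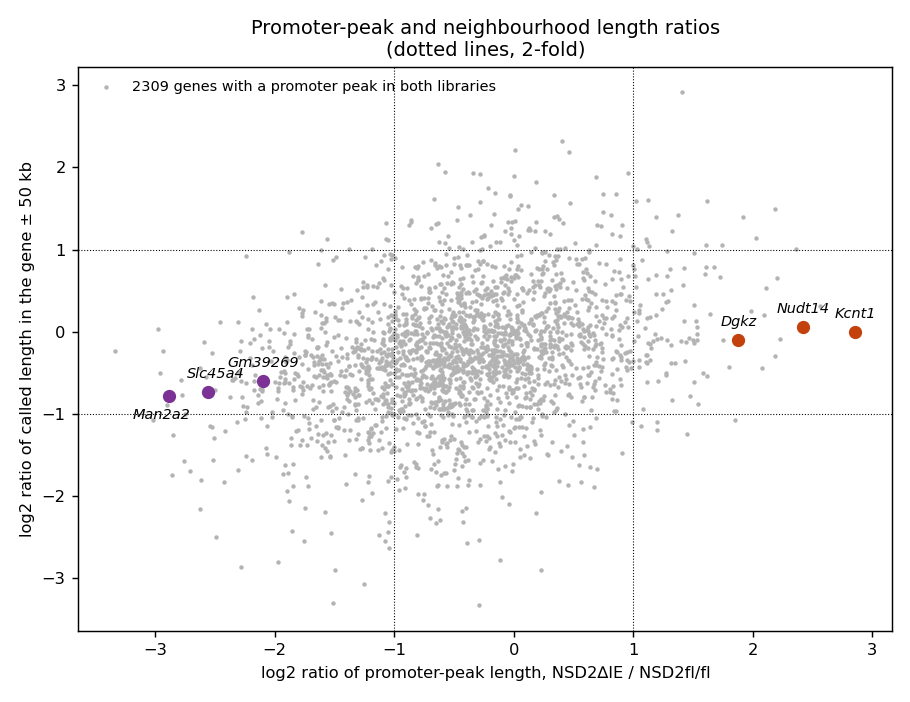
Log2 ratios (NSD2∆IE over NSD2fl/fl) of promoter-peak length on the x axis and of called length in the gene with 50 kb on each side on the y axis. Grey points are the 2309 genes whose promoter held a peak in each library, purple points the genes chosen as falls and orange points those chosen as rises, with dotted lines at 2-fold. The 6 genes lie far to the left and right, and within 2-fold on the y axis. They were chosen by change in bp, so other genes can lie further out, as 3.07% do to the left of *Gm39269*.

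The width of the window mattered at single genes. Over the gene body alone the log2 ratios were -1.45 at *Slc45a4*, -0.81 at *Gm39269*, -1.43 at *Man2a2*, 1.27 at *Kcnt1*, -0.88 at *Nudt14* and 1.14 at *Dgkz*. *Nudt14* was thus the gene whose promoter total and gene body went opposite ways. Within 10 kb of the outermost start, *Slc45a4* and *Dgkz* went against their choice, the latter with 3579 bp in NSD2fl/fl and 2452 bp in NSD2∆IE (-0.55). The lengths there were 18438 and 6416 bp at *Gm39269*, 17827 and 8425 bp at *Man2a2* and 8212 and 13989 bp at *Nudt14*. The window of 50 kb also takes in the peaks of neighbouring genes. Inside it, the peaks of other genes summed to 29479 bp in NSD2fl/fl and 12360 bp in NSD2∆IE around *Kcnt1*, to 43675 and 31874 bp around *Nudt14*, and to 28648 and 17038 bp around *Dgkz*. They summed to 18960 and 10789 bp around *Slc45a4* and to 13560 and 4615 bp around *Gm39269*. Around *Man2a2* alone of the 6 genes their sum was not lower in NSD2∆IE, at 22968 and 23699 bp.

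Every one of the 6 genes had at least 1 peak of 10 kb or more in the library where its promoter length was high, and none in the other library, a pattern that a choice by width favours. In NSD2fl/fl there were 676 such peaks (3.38% of the list) and in NSD2∆IE 163 (0.693%). The wide peaks of the falls were covered in NSD2∆IE to 32.7% at *Slc45a4*, 71.7% and 15.0% at *Gm39269*, and 35.7% and 22.6% at *Man2a2*. The median over the 676 peaks was 30.6%, with quartiles of 7.42% and 49.8%, so that 4 of these 5 peaks lay between the quartiles and the first of *Gm39269* lay above. In NSD2∆IE the wide peaks of *Nudt14*, *Dgkz* and *Kcnt1* were covered to 19.1%, 40.7% and 36.7%. All lay below the median of 57.1% over 163 peaks, and the first below the lower quartile of 35.4%. A choice of genes by unequal promoter length favours low cover in the other library, so nothing is read from these positions.

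**Figure D4:**
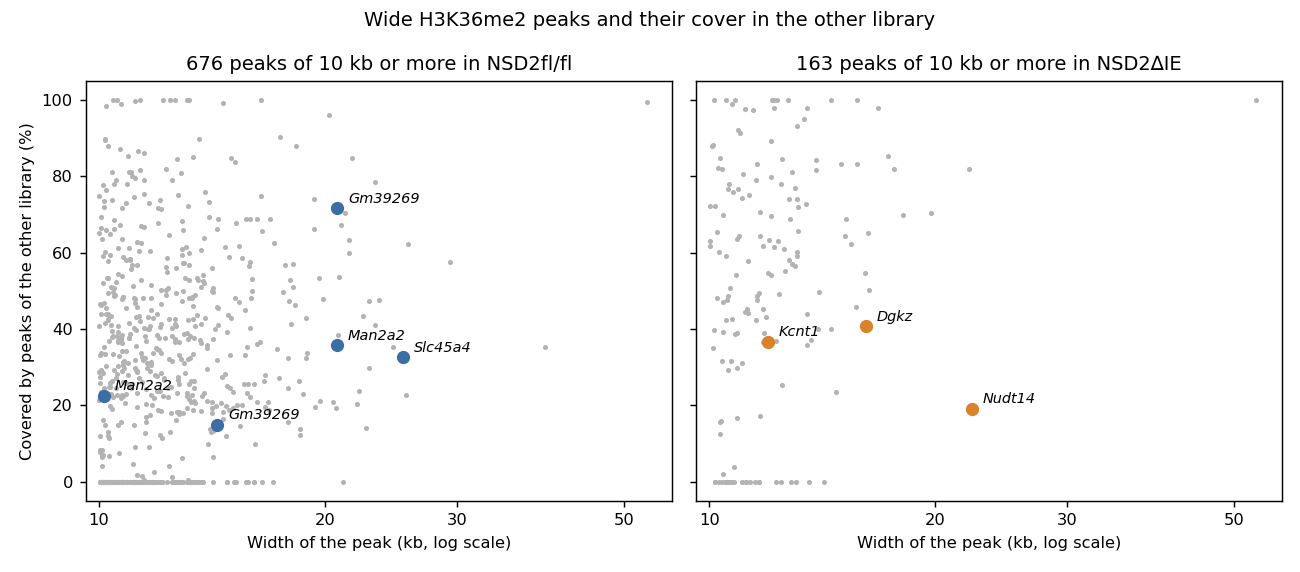
Peaks of 10 kb or more in each library. The x axis gives the width in kb (log scale) and the y axis the percentage of the peak covered by peaks of the other library, with grey points for all such peaks and coloured points for those annotated to the 6 genes. The named NSD2fl/fl peaks lie between 15.0% and 71.7% and the named NSD2∆IE peaks between 19.1% and 40.7%.

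Counted by number, 15 of the 20 NSD2fl/fl peaks of the 6 genes (75%) overlapped a NSD2∆IE peak by at least 1 bp, and 17 of the 27 NSD2∆IE peaks (63.0%) the reverse, against 34.1% and 30.7% of all peaks. Wide peaks meet another peak more easily. With at least 50% of both peaks shared, 5 of the 20 and 5 of the 27 remained, a share that was not computed over the lists. By length, 43.0% of the NSD2fl/fl and 45.6% of the NSD2∆IE peaks at these genes were shared (20.02% and 23.4% over the lists). The overlaps formed 21 pairs of peaks. In 18 of them (85.7%) both libraries named the same gene, as in 91.9% of the 7465 pairs over the lists. Of 12 pairs whose NSD2fl/fl peak was a promoter peak, 6 (50%) were a promoter peak of the same gene in NSD2∆IE as well, where the share was 70.5% of 2946 such pairs over the lists. The choice of genes with unequal promoter annotation favours a low share here, and nothing is read from the difference.

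Signal divided by width did not follow the change in length. The 20 NSD2fl/fl peaks had 6.07 to 9.54 per bp with a median of 6.94, and the 27 NSD2∆IE peaks 5.01 to 9.83 with a median of 7.01. Relative to the median peak of their own list (6.14 and 6.32), these medians were 1.13 and 1.11 times as high. By gene, *Man2a2* had 6.51 per bp in NSD2fl/fl and 7.21 in NSD2∆IE, and *Gm39269* 6.72 and 7.43, although their length was lower in NSD2∆IE. *Nudt14* had 7.74 and 6.94, and *Dgkz* 7.02 and 6.86, with greater length in NSD2∆IE. *Slc45a4* (7.37 and 6.81) and *Kcnt1* (6.77 and 7.50) moved the same way in signal and length. No scaling to depth is stated, so the signal orders peaks within a list and these differences between lists cannot be told apart from depth.

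The genes differ in how many places a promoter peak can be called. RefSeq lists 33 transcripts for *Kcnt1* and 24 for *Dgkz*, more than 98.4% and 96.9% of the 2263 genes that could be matched, where the median was 3. *Slc45a4* has 8, *Man2a2* 5, and *Gm39269* and *Nudt14* 2 each. The peaks themselves named 6 start sites at *Slc45a4*, 5 at *Kcnt1*, 4 at *Dgkz*, 2 at *Gm39269* and *Man2a2* and 1 at *Nudt14*. The genes span from 7852 bp (*Nudt14*) to 68340 bp (*Slc45a4*).

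Relatives of the 6 genes were taken from lists of their families: SLC45 transporters, enzymes of N-glycan mannose trimming and branching, high-conductance potassium channels, Nudix hydrolases and diacylglycerol kinases. Of the 18187 genes named in the lists, 12462 had a peak in NSD2fl/fl and 13595 in NSD2∆IE, 7870 of them in both. These numbers leave out genes without any peak, which the relatives include, so the 2 sets of counts are not alike. Of 47 relatives, 15 had peaks in both libraries, 4 in NSD2fl/fl alone, 6 in NSD2∆IE alone and 22 in neither. By the length of all peaks, 3 of the 15 were past 2-fold lower and 3 higher in NSD2∆IE, where 22.9% and 8.27% of the 7870 genes with any peak in both libraries were. Their median log2 ratio was -0.18, and that of the 7870 genes was -0.32. *Slc45a3* went from 21047 to 4689 bp, as *Slc45a4* was lower, while *Slc45a1* went from 6134 to 16453 bp. The closest relatives of *Man2a2* and *Kcnt1*, namely *Man2a1* and *Kcnt2*, had no peak in either library. *Kcnma1*, the large-conductance calcium-activated channel, had 42932 and 37893 bp. Among diacylglycerol kinases, *Dgki*, of the same zeta-like type as *Dgkz*, had 18993 and 31624 bp, whereas *Dgkg* had 19627 and 4332 bp. By promoter peaks alone *Dgki* went the other way from *Dgkz*, with 10192 bp in NSD2fl/fl and 0 bp in NSD2∆IE.

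The lists give little on the cell types of the samples. Of 10 epithelial markers 3 had a peak in NSD2fl/fl and 6 in NSD2∆IE (24854 and 36434 bp in sum). The counts were 1 and 2 of 6 immune markers (9746 and 8436 bp), and 1 and 2 of 5 smooth muscle and stromal markers (30046 and 10601 bp). Of 2 nerve markers they were 1 and 1 (3643 and 4120 bp). Of the 18187 genes named in the lists, 12462 had a peak in NSD2fl/fl and 13595 in NSD2∆IE, with genes without any peak left out. *Epcam* and *Lgr5* had no peak in NSD2fl/fl, and *Krt8*, *Krt18* and *Cdx2* none in either library. The mark is no measure of expression, and the part of cell composition in the lengths above was not tested. *Nsd2* had no peak in NSD2fl/fl and 1 of 3766 bp in NSD2∆IE, which does not check the deletion.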

How the data were processed

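H3K36me2 CUT&Tag was measured in 1 NSD2fl/fl and 1 NSD2∆IE colon library. The submitters' processing notes name Bowtie2, deepTools, SEACR and ChIPseeker, without versions, and the build hg38, although the samples are mouse and the lists hold mouse genes. Settings and control are not given in the sources used here. Per library, the authors deposited called peaks with their positions, width, a summed signal with no stated scaling to depth, and the nearest gene, transcript and feature. Read depth cannot be had from these lists, so the precision of single peaks could not be estimated, and the lists start at different summed signals (21783 and 16571).

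Peak widths were summed per gene, over promoter peaks, over all annotated peaks and in windows, and overlaps of at least 1 bp were counted in Python 3.11.15 (numpy 2.4.6, pandas 2.3.3, and matplotlib 3.10.9 for figures). The code was tested on a simulated pair of lists with 4000 peaks, of which all 2013 shared ones were found. Log2 ratios were computed without a pseudocount, and 2-fold was the limit for counts. RefSeq promoters (GRCm38.p6) matched 3 of the 6 genes, and coordinates were not converted. The 6 genes, the families, the markers and the measures were chosen with earlier results of these data known. Besides the 6 genes, the text names genes of peaks that overlap or adjoin theirs, the genes next in rank and their closest relatives, and a few others picked after their values were seen. Alternatives were merged peaks, equal numbers of peaks, the strongest 50%, scaling to total length, other promoter definitions, other windows and a reciprocal overlap.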

Additional observations from a re-analysis of the deposited data

How the results depend on the processing

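All 6 genes kept their direction of promoter-peak length, past 2-fold, when peaks within 1 kb were merged, with equal numbers of peaks by signal, with the strongest 50% of each list (where *Dgkz* had no promoter peak left in NSD2fl/fl), after division by total called length, with promoters of 1 kb (where *Gm39269* had none left in NSD2∆IE and *Kcnt1* none in NSD2fl/fl, so that both counted against 0 bp), and with any peak within 3 kb of a start site. These settings draw on the same promoter peaks that chose the 6 genes. A kept direction is therefore favoured by the choice and is no support, and the shares over all genes under these settings were not computed. For the last setting, the start sites were those named by the gene's own peaks, and its lengths equalled the main ones at all 6 genes. Counted by number of peaks, 1 gene was past 2-fold and 4 kept their direction. The count for called length in the gene with 50 kb on each side was 0 of 6 in the chosen direction. It became 4 over the gene without flanks, where 369 of 1889 genes were past 2-fold lower and 151 higher. With 10 kb on each side it was 2, where 441 of 2309 genes were lower and 132 higher. Within 10 kb of the outermost start it was 3, where 424 of 2100 genes were lower and 127 higher. *Kcnt1*, among these 3, had only 304 bp there in NSD2fl/fl, from the end of a *Sohlh1* peak. With genes counted past a log2 ratio of 0.5, chosen after the data were seen, the count for 50 kb on each side was 3, all of them falls. By that limit 36.2% of the 2309 genes were lower and 13.9% higher. The count for all annotated peaks was then 5 in place of 2, and its share over all genes was not computed. Under a reciprocal overlap of 50%, 5 and 5 peaks were shared in place of 15 and 17. The other 17 of 25 counts stayed within 1.5 times. Of 104 log2 ratios of single genes under the alternatives, 20 moved by more than 1.5-fold. Those that changed sign were all of called length around a gene, among them *Slc45a4* within 10 kb of its start (0.83), *Nudt14* over its gene body (-0.88) and *Dgkz* with the strongest 50% (0.64).

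No paired analysis was possible because only a single library of each genotype was compared. Nothing here separates genotype from library, and the unknown depth and the different lowest signals of the lists limit any statement on a peak that is missing.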
